A study of Rattus norvegicus with 40 samples.

Results

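The genes described here are 10 members of the signalling chain that runs from the tumour necrosis factor receptor and the kinase TAK1 to the transcription factor NF-kappaB, out of 25958 gene identifiers in the data. They were taken by name from a list of Tnfrsf1a, Traf6, Map3k7, Tab1, Tab2, Tab3, Ikbkb, Ikbke, Nfkb1 and Rela. The members were chosen by the blast and sham values of Map3k7, the gene of TAK1, in the hippocampus: in the authors' deposited table its identifier ENSRNOG00000047516 was the 1 gene called between blast and sham, with a log2 fold change of -0.45 and an adjusted p of 0.0373. The hippocampal values of the members are therefore given as a description, with no test. A further identifier, ENSRNOG00000005724, carries the name Map3k7 in the cerebellum table and is included, which makes 11 identifiers.

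Rat brain RNA was sequenced 12 months after the animals had been exposed to a blast or given a sham exposure. The hippocampus, the amygdala, the anterior cortex and the cerebellum each had 5 blast-exposed and 5 sham libraries, 40 in all, from total RNA of bulk tissue. The strain, the age at exposure and the form of the blast are not named in the sources used here, and the numbers in the library titles (as in Hip_666 or Hip_33, with 5 numbers for blast and 5 for sham) are not said to be animals, so p-values measure the spread between these samples. The amygdala sham library whose column and title disagree on the number is called unnumbered.

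Tumour necrosis factor receptor 1 and the interleukin-1 and Toll-like receptors recruit adaptors that lead to ubiquitin chains. For the interleukin-1 and Toll-like receptors these include the ubiquitin ligase TRAF6. The chains are bound by TAB2 or TAB3 and bring TAK1 and its activator TAB1 into action. TAK1 then phosphorylates the IkappaB kinase complex, which releases NF-kappaB dimers such as p50 with p65, and it also feeds the JNK and p38 kinase arms. In the brain the pathway is best known for the inflammatory response of microglia, astrocytes and endothelium, and it is also active in neurons.

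Promoter windows of 2 members are shown. RefSeq (build GRCr8) holds windows of 300 bases around the start site for Map3k7, Tab2, Tab3, Nfkb1, Rela and Tnfrsf1a, and Tab3 has 2. The Map3k7 window lies on chromosome 5 (chr5:51154102-51154401, plus strand) and is shown because it belongs to the single Map3k7 locus of that assembly. The Nfkb1 window (chr2:226805413-226805712, minus strand) is shown because it is the 1 window of the 7 with a match to the kappaB consensus, in capitals, on either strand.
Map3k7: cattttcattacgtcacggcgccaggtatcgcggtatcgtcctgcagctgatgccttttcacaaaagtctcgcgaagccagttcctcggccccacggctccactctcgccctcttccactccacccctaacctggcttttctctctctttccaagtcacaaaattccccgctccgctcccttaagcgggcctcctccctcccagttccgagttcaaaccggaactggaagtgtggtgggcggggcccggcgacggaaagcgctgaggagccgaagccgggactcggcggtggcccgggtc
Nfkb1: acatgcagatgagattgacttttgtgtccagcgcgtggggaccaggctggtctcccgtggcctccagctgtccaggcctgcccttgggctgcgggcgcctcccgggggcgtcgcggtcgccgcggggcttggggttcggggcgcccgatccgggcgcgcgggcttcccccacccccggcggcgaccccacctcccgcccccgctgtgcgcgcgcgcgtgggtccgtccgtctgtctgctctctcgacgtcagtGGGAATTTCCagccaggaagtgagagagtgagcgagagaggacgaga
The match in Nfkb1 begins 4 bases into the transcript, counting the start base as the first. A match to this consensus occurs in 7.5% of the 33469 RefSeq windows of the same length, so 1 in 7 is a description of these letters and says nothing about binding.

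Library totals ran from 11268097 to 37128383 counts over the 40 libraries. Sham libraries had their highest summed level of hippocampal, cortical and cerebellar marker genes in the region so labelled, with medians of 777.6, 382.3 and 4825 CPM (counts relative to the library size after TMM scaling). The 6 amygdala markers summed to 374.7 CPM in the amygdala and 969.7 in the cerebellum, so that list does not single out the amygdala. Choroid plexus genes were high in hippocampus libraries Hip_8, Hip_666 and Hip_11 and in cerebellum libraries Cer22, Cer8 and Cer33. Anterior cortex libraries AC_8, AC_11, AC_13 and AC-15 detected fewer genes, between 16577 and 17845 against 18744 or more in the other 6. Several of the values below are also given without these libraries.

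The name Map3k7 changes place between the tables. In the hippocampus, amygdala and anterior cortex tables it stands at ENSRNOG00000047516, on the plus strand of chromosome 9 (chr9:114022137-114079089), and in the cerebellum table that identifier is called LOC100910771. The other identifier, ENSRNOG00000005724, lies on the plus strand of chromosome 5 (chr5:47186558-47244416), with LOC100910771 as its name in the first 3 tables and Map3k7 in the cerebellum. These positions are those of the deposited tables, whose genome build is not named in the sources used here. RefSeq GRCr8 lists Map3k7 once, on chromosome 5 directly before Bach2, which is also the next gene after the chromosome 5 identifier in the deposited tables. The same annotation has Ddx11 directly after Washc1 on chromosome 9, and in the deposited tables the chromosome 9 identifier lies between these genes. LOC100910771 is not among its names. Both identifiers are therefore reported, as the chromosome 9 and the chromosome 5 identifier. If they are near-identical copies, reads may have been shared out between them by the counting, whose rule for such reads is not known here.

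In the hippocampus the chromosome 9 identifier had 22, 10, 21, 6 and 11 counts in blast libraries Hip_22, Hip_4, Hip_666, Hip_8 and Hip_88. Sham libraries Hip_11, Hip_13, Hip_14, Hip_15 and Hip_33 had 139, 138, 128, 195 and 8 counts. In CPM the blast libraries lay between 0.453 and 1.42, and the sham libraries at 11.8, 8.26, 6.74, 14.2 and 0.645. Thus 4 sham libraries were high, while sham library Hip_33 stood among the blast libraries and the groups overlapped. The group means were 0.945 ± 0.446 (SD, n = 5) CPM in blast and 8.32 ± 5.19 in sham, a log2 fold change of -3.12 ± 0.62 (SE). Without libraries Hip_8, Hip_666 and Hip_11, high in choroid plexus genes, it was -2.95. These are the values on which Map3k7, and with it the list, was chosen. The size differs from that in the authors' deposited table, and how those fold changes were computed is not stated there.

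The chromosome 5 identifier was lower in hippocampal blast libraries by a smaller margin. It had 68, 76, 65, 125 and 56 counts in blast libraries Hip_22, Hip_4, Hip_666, Hip_8 and Hip_88, or 4.38, 5.42, 4.40, 9.44 and 3.67 CPM. The sham libraries Hip_11, Hip_13, Hip_14, Hip_15 and Hip_33 had 10.7, 9.52, 6.11, 10.7 and 5.65 CPM. Blast library Hip_8 lay among the sham libraries, sham library Hip_33 lay among the blast libraries, and the log2 fold change was -0.65 ± 0.29 (SE), or -0.83 without Hip_8, Hip_666 and Hip_11. With the counts of both identifiers added, the hippocampal means were 6.41 ± 2.06 (SD, n = 5) CPM in blast and 16.9 ± 7.50 in sham, a log2 fold change of -1.40 ± 0.34.

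**Figure D1:**
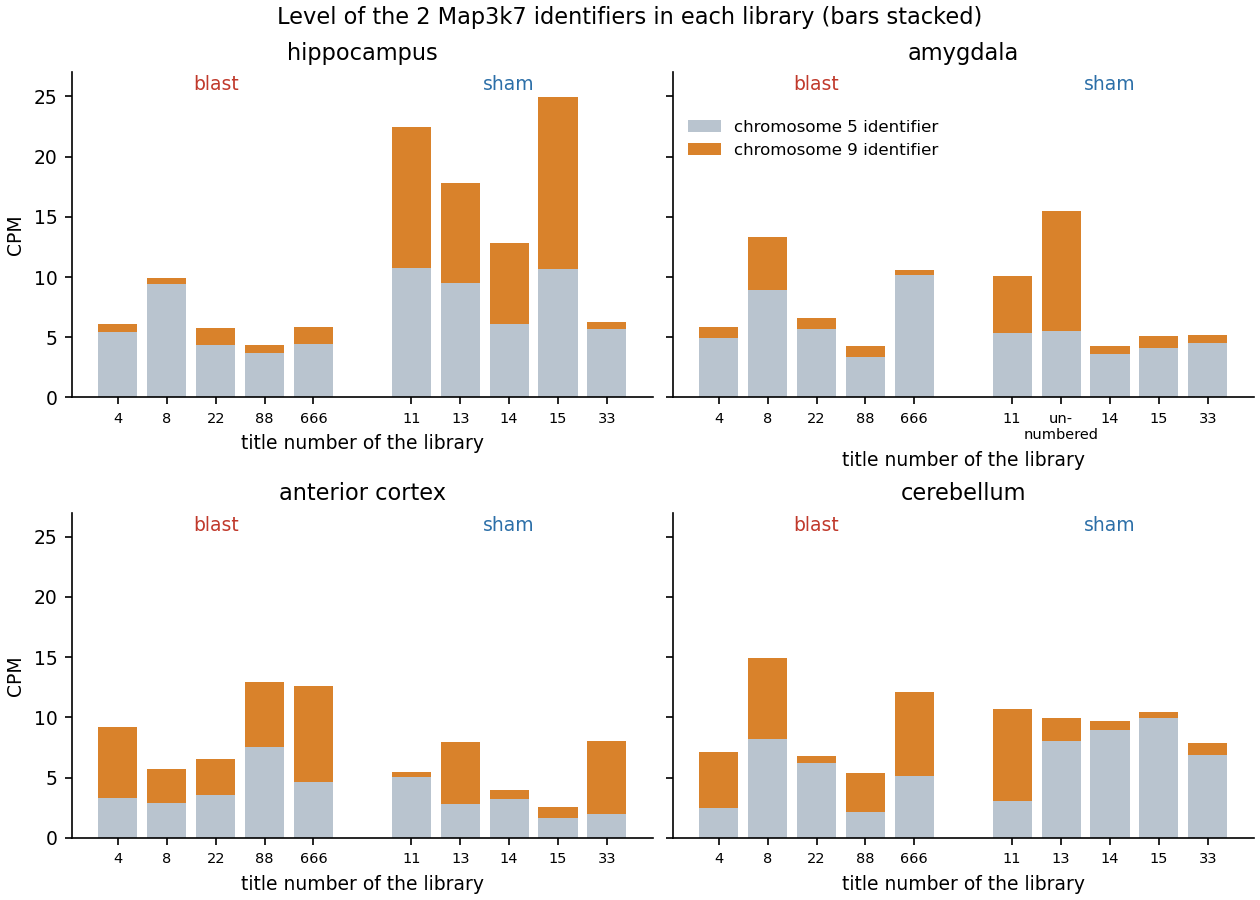
Level of the chromosome 5 identifier (grey) and, stacked on it, the chromosome 9 identifier (orange) in CPM on the vertical axis, for each library by title number, in 4 panels of 1 region each. In the hippocampus the orange share is large in 4 of 5 sham libraries and small in all 5 blast libraries, and in the other regions large and small orange shares occur in both groups.

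Outside the hippocampus the chromosome 9 identifier was high and low in both groups. In the amygdala 4 of the 5 blast libraries had 0.447 to 0.906 CPM and blast library Amy_8 had 4.42. The amygdala sham libraries Amy_11, Amy_14, Amy-15, Amy_33 and unnumbered had 4.69, 0.621, 1.07, 0.633 and 9.92 CPM. Low libraries were thus the majority in both amygdala groups, and the log2 fold change of -1.16 ± 0.77 (SE) did not pass the test (edgeR quasi-likelihood, adjusted p = 0.687). Single libraries decided its size: it was -0.20 without the unnumbered sham library and -2.08 without blast library Amy_8.

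In the anterior cortex the order was the opposite. Blast libraries AC_22, AC_4, AC_666, AC_8 and AC_88 had 2.97, 5.84, 7.97, 2.83 and 5.43 CPM of the chromosome 9 identifier. Sham libraries AC_11, AC_13, AC_14, AC-15 and AC_33 had 0.381, 5.13, 0.763, 0.909 and 6.08 CPM. All 5 blast libraries were above sham libraries AC_11, AC_14 and AC-15, but only blast library AC_666 was above sham library AC_33, and the log2 fold change was 0.91 ± 0.64 (SE; edgeR, adjusted p = 0.799). Without libraries AC_8, AC_11, AC_13 and AC-15 the log2 fold change was 0.70, and without AC_33 it was 1.48.

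For the chromosome 9 identifier the cerebellum showed the same lack of separation. Blast libraries Cer22, Cer4, Cer666, Cer8 and Cer88 had 0.650, 4.67, 6.92, 6.72 and 3.22 CPM. Sham libraries Cer11, Cer13, Cer14, Cer15 and Cer33 had 7.63, 1.87, 0.805, 0.425 and 0.939 CPM, so that 1 sham library exceeded every blast library and 1 blast library was as low as the lower sham libraries. The log2 fold change was 0.91 ± 0.68 (SE; edgeR, adjusted p = 0.999), and without sham library Cer11 it was 2.12. A separate limma voom fit gave the mean blast effect over the amygdala, the anterior cortex and the cerebellum. For this identifier it was 0.67 ± 0.48 (SE) on the log2 scale (limma voom, adjusted p = 0.495). That fit works on log counts, and its value is not the average of the edgeR values of the regions.

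High and low levels of the chromosome 9 identifier did not go with the title number. Number 33 was low in the hippocampus (0.645 CPM), the amygdala (0.633) and the cerebellum (0.939), and high in the anterior cortex (6.08). Number 15 had the highest level of all libraries in the hippocampus, at 14.2 CPM, and 0.425 CPM in the cerebellum. Number 11 was high in the hippocampus, the amygdala and the cerebellum and had the lowest level of the anterior cortex, 0.381 CPM. Of the blast libraries, AC_666 stood at 7.97 CPM and Amy_666 at 0.447.

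**Figure D2:**
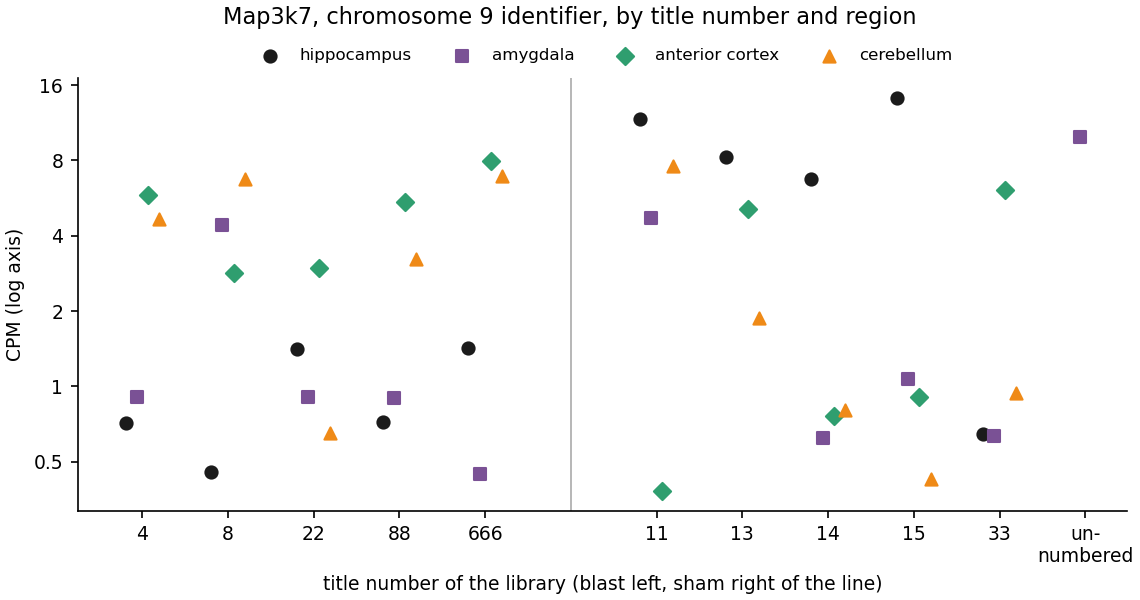
CPM of the chromosome 9 identifier (log axis) against title number, 1 symbol per region, with blast numbers left of the line and sham numbers right of it. Most numbers hold both a low and a high library, such as number 33 with 0.645 CPM in the hippocampus and 6.08 in the anterior cortex.

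The spread of this identifier within groups was wide in every region. Its SD of log2 CPM within groups was 1.09 in the hippocampus, 1.21 in the amygdala, 1.03 in the anterior cortex and 1.17 in the cerebellum. Genes of like level had median SDs between 0.27 and 0.46, and from 1.52% (amygdala) to 4.41% (anterior cortex) of them had a larger SD. The chromosome 5 identifier had an SD of 0.46 in the hippocampus, 0.45 in the amygdala, 0.51 in the anterior cortex and 0.68 in the cerebellum. Among the other members the widest spread was that of Traf6 in the anterior cortex, at 0.62, and in the cerebellum none of the 9 exceeded the 0.20 of Tab3.

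The chromosome 9 identifier took a share of the summed Map3k7 counts that ranged from 4.08% (95% Wilson interval 1.88% to 8.62%, cerebellum sham library Cer15) to 75.2% (66.0% to 82.6%, anterior cortex sham library AC_33). The intervals cover counting error only. In the hippocampus the share was 4.58% to 24.4% in blast, with a median of 16.4%, and 10.3% to 57.0% in sham, with a median of 52.3%. In the anterior cortex the medians were 49.2% in blast and 35.7% in sham, and in the cerebellum 57.3% and 12.0%. Across the 10 libraries of a region, log2 levels of the 2 identifiers had a Pearson r of 0.65 in the hippocampus, 0.22 in the amygdala, 0.13 in the anterior cortex and -0.57 in the cerebellum, a description of libraries that share depth and group. In the cerebellum the chromosome 5 identifier was at 4.84 ± 2.54 (SD, n = 5) CPM in blast and 7.40 ± 2.66 in sham, against 4.44 ± 2.61 and 2.33 ± 3.01 for the chromosome 9 identifier. The log2 fold change of the chromosome 5 identifier there was -0.61 ± 0.37 (SE; edgeR, adjusted p = 0.999), and -1.21 without Cer22, Cer8 and Cer33.

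Added together, the 2 identifiers had smaller log2 fold changes than either alone in the amygdala and the cerebellum. In the anterior cortex the sum lay between the 0.57 of the chromosome 5 and the 0.91 of the chromosome 9 identifier. The summed level was 8.13 ± 3.73 (SD, n = 5) CPM in blast and 8.03 ± 4.74 in sham amygdala, with a log2 fold change of 0.02 ± 0.37 (SE), or 0.40 without the unnumbered library. In the cerebellum it was 9.27 ± 4.04 and 9.73 ± 1.12 CPM, a log2 fold change of -0.07 ± 0.24, or -0.32 without Cer22, Cer8 and Cer33. In the anterior cortex it was 9.40 ± 3.32 and 5.60 ± 2.43 CPM, a log2 fold change of 0.74 ± 0.34 with an unadjusted p of 0.0464 (edgeR, adjusted p = 0.799), or 0.76 without the 4 libraries with fewer genes. Summing was chosen after the data had been seen.

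Genes around the 2 places had smaller log2 fold changes in the hippocampus, between -0.15 and 0.26. AABR07068650.1, which overlaps the chromosome 9 identifier on the other strand, had 1.52 ± 0.29 (SD, n = 5) CPM in blast and 1.64 ± 0.83 in sham hippocampus. Washc1, which codes for a subunit of the endosomal WASH complex, had 21.96 ± 3.02 CPM in blast and 24.3 ± 6.04 in sham hippocampus, and the helicase gene Ddx11 had 6.01 ± 1.14 and 5.76 ± 1.21. Bach2, on chromosome 5, had 4.80 ± 0.96 and 4.02 ± 2.06. In the amygdala, the anterior cortex and the cerebellum the log2 fold changes of Ndufv2, Washc1, Ddx11 and Bach2 lay between -0.30 and 0.33, and those of AABR07068650.1 were 0.43 ± 0.31 (SE), -0.32 ± 0.53 and 0.37 ± 0.27. None of the 5 was called (edgeR, adjusted p from 0.598 to 0.999). The remaining neighbours, AABR07068674.1, AABR07047714.1, AABR07047771.1 and Gja10, did not exceed a group mean of 0.777 CPM. Whether the counting used strand is not said in the sources used here, so reads of the overlapping genes cannot be told apart.

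Over the 40 libraries, with each region centred on its mean, the 5 genes most like the chromosome 9 identifier in log2 CPM among 14972 were RGD1305014 (Pearson r 0.54), Sema4c (0.52), Wdr44 (0.52), Dusp1 (0.51) and LOC100363116 (0.48). The lowest values were those of Gask1a (-0.66), Amz1 (-0.53), Gm23841 (-0.52), Pknox2 (-0.51) and AABR07030498.1 (-0.50). No member came near these, and the extremes among the other 10 identifiers were Ikbke at 0.19 and Tab1 at -0.34. These values describe libraries that share regions, groups and depth, and they carry no test.

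Outside the Map3k7 pair and Ikbke in the cerebellum, the members' log2 fold changes of blast over sham lay between -0.42 and 0.22. None of the 11 identifiers was called by edgeR in the amygdala, the anterior cortex or the cerebellum, where 0% of the 15280, 14918 and 14769 genes tested were called. At an unadjusted p under 0.05 there were 1325, 644 and 683 genes in these regions, and 2 members, both in the cerebellum. In the mean effect over the 3 regions limma voom called 0% of 16143 genes and none of the members, whose adjusted p ran from 0.341 to 0.885. In the hippocampus, where edgeR also called 0% of 15059 genes (284 at an unadjusted p under 0.05), 8 of the 11 identifiers were higher in blast and 3 lower, and nothing is read from this. Without Hip_8, Hip_666 and Hip_11 the hippocampal log2 fold change turned from 0.12 to -0.083 for Tab1 and from -0.14 to 0.061 for Tab3.

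**Figure D3:**
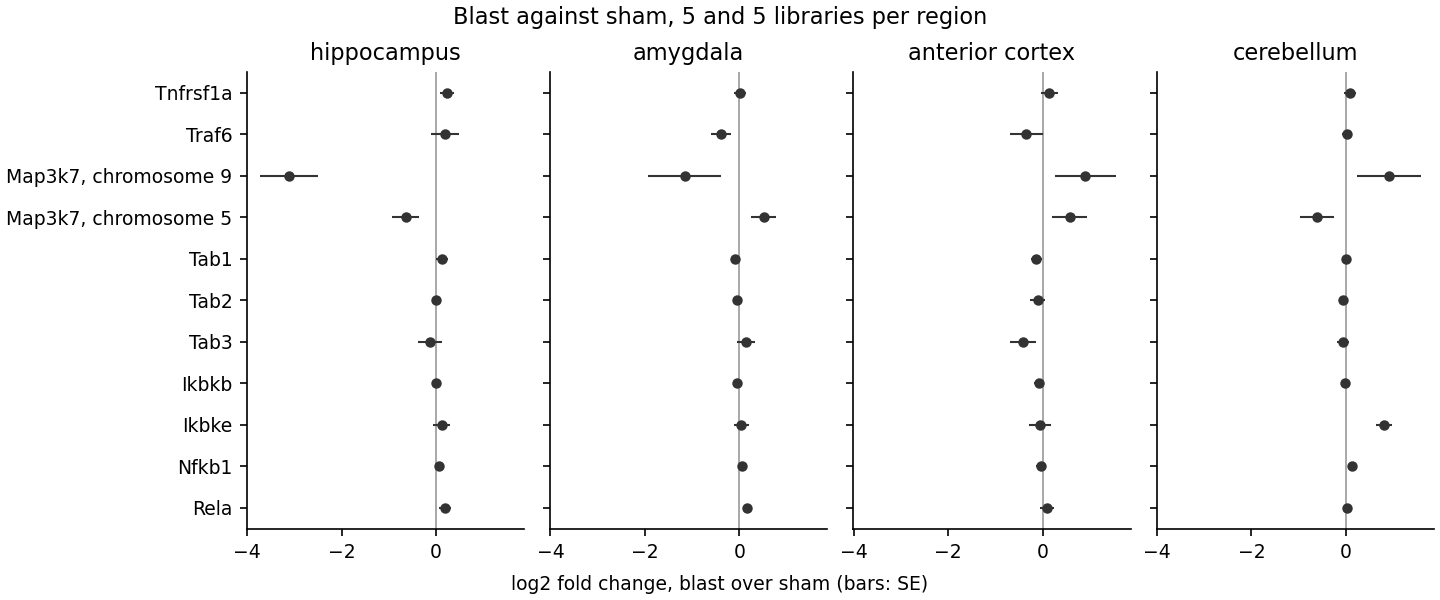
Log2 fold change of blast over sham (horizontal axis, bars are SE, 5 and 5 libraries) for the 11 identifiers in 4 panels of 1 region each. Only the Map3k7 identifiers and, in the cerebellum, Ikbke lie more than 0.5 from 0, and the hippocampal value of the chromosome 9 identifier, -3.12, is the farthest.

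A stricter description counts genes whose 5 blast libraries all lay above or all below the 5 sham libraries. No member did so in the hippocampus, where 0.272% of all genes did, in the amygdala (1.52% of all genes) or in the anterior cortex (0.644%). In the cerebellum 2 of 11 did, Ikbke and Tab2, against 0.731% of all genes. The median log2 fold change of the 11 identifiers was 0.01 in the amygdala, -0.05 in the anterior cortex and 0.02 in the cerebellum, beside -0.00100, -7.53e-05 and 0.00223 over all genes tested. The members had been chosen with results known, and these counts are given as a description.

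At the receptor end, Tnfrsf1a, the gene of tumour necrosis factor receptor 1, differed little between groups. It had 14.5 ± 1.76 (SD, n = 5) CPM in blast and 14.3 ± 2.21 in sham amygdala, 14.5 ± 1.59 and 13.1 ± 3.12 in the anterior cortex, and 11.9 ± 1.80 and 11.1 ± 1.38 in the cerebellum. Its log2 fold changes were 0.01 ± 0.12 (SE), 0.14 ± 0.18 and 0.10 ± 0.12 (edgeR, adjusted p of 0.985, 0.843 and 0.999), and without the 4 anterior cortex libraries with fewer genes the cortical value was -0.16. In the hippocampus it had 11.8 ± 1.71 CPM in blast and 10.1 ± 1.45 in sham, with sham library Hip_13 lowest at 7.54, a log2 fold change of 0.22, or 0.10 without Hip_8, Hip_666 and Hip_11.

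Traf6, whose product joins the interleukin-1 and Toll-like receptors to TAK1, was lower in blast amygdala and anterior cortex by amounts within its spread. The amygdala blast libraries had a lowest, median and highest level of 4.67, 5.62 and 9.20 CPM, and the sham libraries 5.71, 8.35 and 10.2. The anterior cortex blast libraries ran from 8.88 to 16.7 CPM and the sham libraries from 6.36 to 23.7. The ranges overlapped in both regions, and the log2 fold changes were -0.39 ± 0.21 (SE) and -0.34 ± 0.35 (edgeR, adjusted p of 0.605 and 0.812). Without libraries AC_8, AC_11, AC_13 and AC-15, which detected fewer genes, the anterior cortex value was 0.45, and without AC-15 alone it was -0.065. In the cerebellum the log2 fold change was 0.02 ± 0.11, and -0.030 without Cer22, Cer8 and Cer33.

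The TAB genes code for the partners that switch on TAK1 (Tab1) or tie it to ubiquitin chains (Tab2 and Tab3). Tab1 had 33.3 ± 2.31 (SD, n = 5) CPM in blast and 35.7 ± 1.31 in sham amygdala, 31.6 ± 1.39 and 34.6 ± 3.09 in the anterior cortex, and 48.4 ± 5.11 and 48.4 ± 2.30 in the cerebellum. Tab3 had 6.93 ± 1.19 CPM in blast and 9.29 ± 3.98 in sham anterior cortex, a log2 fold change of -0.42 ± 0.27 (SE; edgeR, adjusted p = 0.799), -0.15 without AC-15 and 0.14 without AC_8, AC_11, AC_13 and AC-15. Its cerebellar blast libraries were close together, from 10.1 to 10.6 CPM, and the sham libraries ran from 8.07 to 13.5.

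Tab2, the most abundant member in reads, was the steadiest gene of the set in the cerebellum. Blast libraries Cer22, Cer4, Cer666, Cer8 and Cer88 had 77.7, 78.8, 76.9, 78.2 and 76.6 CPM there. Sham libraries Cer11, Cer13, Cer14, Cer15 and Cer33 had 79.8, 80.3, 87.4, 80.2 and 79.6 CPM. Every blast library lay below every sham library, but the gap between the highest blast and the lowest sham library was narrow, and the log2 fold change was -0.07 ± 0.04 (SE) with an unadjusted p of 0.132 (edgeR, adjusted p = 0.999). Within groups 98.5% of cerebellar genes of like level had a larger SD than Tab2. In the anterior cortex the blast libraries ran from 60.9 to 105.6 CPM, with library AC_8 at the top.

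Ikbke, the gene of the IkappaB kinase epsilon, an inducible kinase related to TBK1, had the largest difference among members outside the Map3k7 pair, in the cerebellum. Its counts were 42, 50, 58, 53 and 51 in blast libraries Cer22, Cer4, Cer666, Cer8 and Cer88, or 3.42, 3.29, 4.67, 3.39 and 3.35 CPM. Sham libraries Cer11, Cer13, Cer14, Cer15 and Cer33 had 28, 31, 25, 28 and 30 counts, or 1.92, 2.07, 1.83, 1.98 and 2.56 CPM. Every blast library lay above every sham library, with means of 3.62 ± 0.59 (SD, n = 5) and 2.07 ± 0.29 CPM. The log2 fold change was 0.80 ± 0.17 (SE), with an unadjusted p of 0.000424 that did not pass the correction over 14769 genes (edgeR, adjusted p = 0.764). The adjusted p in the authors' deposited table was 0.376.

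Blast library Cer666 was the highest for Ikbke, and without it the log2 fold change was 0.70. Summed microglial markers ran from 203.2 to 226.5 CPM in cerebellar blast and from 199.1 to 223.8 in sham libraries, and 7 of 10 were higher in blast. Choroid plexus markers, 8 of 8 higher in blast, ran from 42.5 to 2619 CPM in blast and from 39.6 to 1177 in sham, and meningeal fibroblast markers, 7 of 7 higher, from 112.7 to 330.2 and from 38.5 to 173.5. None of these markers was at 0 throughout a group, and their part in the result was not tested. Without libraries Cer22, Cer8 and Cer33, those high in choroid plexus genes, the Ikbke log2 fold change was 0.94. In pieces of tissue, fewer cells of a type and less RNA per cell cannot be told apart.

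In the other regions Ikbke did not differ between groups beyond its spread. The levels were 11.7 ± 2.27 (SD, n = 5) CPM in blast and 11.4 ± 1.61 in sham amygdala, and 9.01 ± 0.96 and 9.33 ± 3.13 in the anterior cortex. The log2 fold changes were 0.04 ± 0.15 (SE) and -0.05 ± 0.24 (edgeR, adjusted p of 0.952 and 0.962), and whether they differ from that of the cerebellum was not tested. Without the 4 libraries with fewer genes the anterior cortex value was -0.34. The hippocampal levels were 6.90 ± 1.35 and 6.38 ± 0.82 CPM. The mean effect over the 3 regions outside the hippocampus was 0.26 ± 0.13 (limma voom, adjusted p = 0.341).

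**Figure D4:**
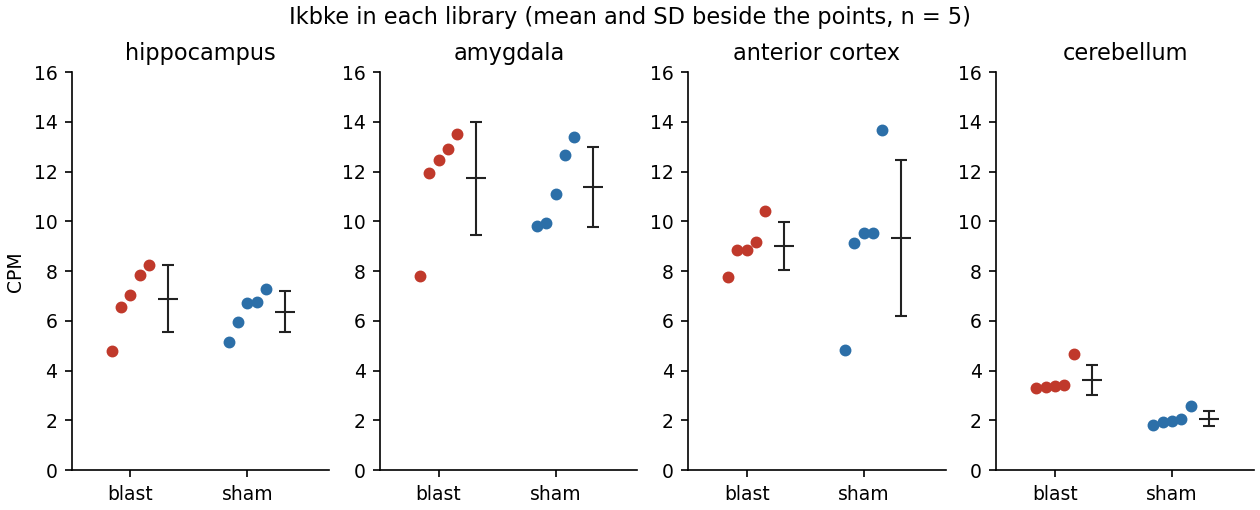
CPM of Ikbke in each library (points), with the mean and SD beside them, for blast and sham in 4 panels of 1 region each. In the cerebellum the blast libraries lie between 3.29 and 4.67 CPM and the sham libraries between 1.83 and 2.56, and in the other panels the groups overlap.

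Ikbkb, the gene of the catalytic subunit that TAK1 activates, was close to equal in the groups. It had 40.7 ± 2.03 (SD, n = 5) CPM in blast and 42.1 ± 3.48 in sham amygdala, 38.3 ± 4.42 and 40.3 ± 2.96 in the anterior cortex, and 51.1 ± 4.38 and 52.1 ± 4.72 in the cerebellum. Its log2 fold changes lay between -0.08 and -0.03 in these regions (edgeR, adjusted p from 0.861 to 0.999).

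Of the NF-kappaB subunits, Nfkb1, which codes for p105 and its product p50, was higher in cerebellar blast libraries by a small amount. Blast libraries Cer22, Cer4, Cer666, Cer8 and Cer88 had 64.4, 62.0, 62.9, 71.7 and 61.1 CPM. Sham libraries Cer11, Cer13, Cer14, Cer15 and Cer33 had 61.1, 60.8, 58.3, 58.9 and 55.9 CPM. The lowest blast and the highest sham library met at 61.1 CPM, so the groups touched, and the log2 fold change was 0.13 ± 0.06 (SE) with an unadjusted p of 0.0395 (edgeR, adjusted p = 0.999). Blast library Cer8 was the highest; without it the log2 fold change was 0.08, and without Cer22, Cer8 and Cer33 it was 0.053.

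Rela, the gene of p65, had 30.2 ± 3.48 (SD, n = 5) CPM in blast and 26.8 ± 2.15 in sham amygdala, a log2 fold change of 0.17 ± 0.09 (SE; edgeR, adjusted p = 0.598). In the anterior cortex and the cerebellum it was 0.09 ± 0.14 and 0.03 ± 0.05. In the hippocampus the levels were 26.7 ± 2.20 CPM in blast and 23.5 ± 3.88 in sham. The p65 gene was thus higher in blast in each of the 4 regions by amounts within the spread of the libraries, though without the libraries set apart above the value was -0.0086 in the anterior cortex and -0.020 in the cerebellum.

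Without blast in play, most members differed between regions in the sham libraries, as did most genes. The edgeR F test over the 4 regions called 74.5% of 15695 genes, and 8 of 10 identifiers (the members other than Map3k7, and the chromosome 5 identifier), a share near that of all genes. Without number 11 the test called 5 of the 10, a count from fewer libraries from which nothing is read about the members. By pair, the members called of 10 were 3 for amygdala against hippocampus (20.7% of all genes), 5 for anterior cortex against hippocampus (43.6%), 5 for cerebellum against hippocampus (53.3%), 2 for anterior cortex against amygdala (21.8%), 5 for cerebellum against amygdala (58.5%) and 5 for cerebellum against anterior cortex (60.2%). The chromosome 9 identifier is left out of these tests because its sham level in the hippocampus took part in the choice. The chromosome 5 identifier is kept in these counts, but if the 2 share reads its tests that involve the hippocampus are not free of the choice.

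Ikbke had the widest range over sham regions. Its mean was 11.4 ± 1.60 (SD, n = 5) CPM in the amygdala, 9.86 ± 3.36 in the anterior cortex, 6.42 ± 0.83 in the hippocampus and 1.89 ± 0.25 in the cerebellum, all on the scaling common to the sham libraries. The amygdala and the anterior cortex did not differ beyond their spread (log2 difference 0.20 ± 0.20 SE). Each further step down did, by 0.63 ± 0.20 to the hippocampus and 1.76 ± 0.22 from there to the cerebellum (edgeR, adjusted p of 0.0169 and 6.09e-07).

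Nfkb1 ran in the other direction, with the cerebellum at the top. Its sham levels were 53.9 ± 2.02 (SD, n = 5) CPM in the cerebellum, 34.4 ± 1.79 in the anterior cortex, 28.4 ± 1.25 in the amygdala and 26.3 ± 2.05 in the hippocampus. The cerebellum exceeded the anterior cortex by 0.65 ± 0.07 (SE) on the log2 scale and the anterior cortex the amygdala by 0.28 ± 0.08 (edgeR, adjusted p of 2.21e-07 and 0.0122), while amygdala and hippocampus did not differ beyond their spread. Tab1 stood at 44.3 ± 2.20 CPM in the cerebellum and between 35.0 and 36.5 in the other regions, a step of 0.28 ± 0.08 (edgeR, adjusted p = 0.00699). The cerebellum annotation gives Tab1 another length, 2986 bases against 3429, so region and annotation cannot be told apart for this step.

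Rela and Ikbkb had the same order as Nfkb1 in smaller steps, from 23.6 ± 3.84 (SD, n = 5) and 37.9 ± 5.46 CPM in the hippocampus to 32.1 ± 1.17 and 47.7 ± 4.69 in the cerebellum. No neighbouring pair of regions differed for either gene, while cerebellum exceeded hippocampus by 0.44 ± 0.12 (SE) and 0.33 ± 0.10 on the log2 scale (edgeR, adjusted p of 0.0043 and 0.00832). Tab2 was level over the regions, from 73.1 ± 7.33 to 82.3 ± 10.6 CPM (F test, adjusted p = 0.327). Tnfrsf1a was higher in the amygdala (14.3 ± 2.24 CPM) and the anterior cortex (13.9 ± 3.43) than in the cerebellum and the hippocampus, both at 10.2, with 1 step between the pairs of 0.45 ± 0.17 (adjusted p = 0.0233).

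Traf6, Tab3 and the chromosome 5 identifier of Map3k7 varied more between libraries of a region. Traf6 had 14.7 ± 7.97 (SD, n = 5) CPM in sham anterior cortex and 8.02 to 11.4 CPM on average elsewhere. No neighbouring regions in its order differed beyond the spread, and the F test over the 4 regions did not call it (edgeR, adjusted p = 0.0504). The anterior cortex exceeded the hippocampus by 0.85 ± 0.33 (SE) on the log2 scale (edgeR, adjusted p = 0.0409). That excess lay in sham libraries AC_11, AC_13 and AC-15, which detected fewer genes, with 20.3, 12.1 and 23.7 CPM on the scaling of the region alone. On the same scaling AC_14 and AC_33 had 6.36 and 7.68 CPM, below the hippocampal sham mean of 8.12. Tab3 ran from 5.42 ± 1.46 CPM in the amygdala to 9.87 ± 2.01 in the cerebellum. The cerebellum and the anterior cortex exceeded the amygdala by 0.86 ± 0.28 and 0.85 ± 0.29 (edgeR, adjusted p of 0.0132 and 0.0392). For the anterior cortex, the high Tab3 libraries were again AC_11, AC_13 and AC-15, at 9.81, 9.35 and 15.5 CPM on the scaling of the region alone. There AC_14 and AC_33 had 6.48 and 5.28 CPM, near the amygdala sham mean of 5.43. The chromosome 5 identifier ran from 8.60 ± 2.50 CPM in the hippocampus through 6.76 ± 2.42 in the cerebellum and 4.64 ± 0.82 in the amygdala to 3.11 ± 1.38 in the anterior cortex. No neighbouring pair differed, and the ends were apart by -1.47 ± 0.31 (SE) on the log2 scale (edgeR, adjusted p = 0.000765). If the 2 identifiers share reads, its hippocampal sham level is tied to the values of the choice, so nothing is read from this test.

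Per length, in the FPKM values the authors deposited, Tab2, Tab1 and the kinase gene Ikbkb were the most abundant in the hippocampus. In sham hippocampus Tab2 had 21.8 FPKM, Tab1 13.6, Ikbkb 10.6, Rela 9.65 and Nfkb1 6.76, followed by Tnfrsf1a at 4.73, Tab3 at 3.58, Traf6 at 3.01 and Ikbke at 1.98. The 2 Map3k7 identifiers had 2.01 (chromosome 9) and 1.89 FPKM (chromosome 5). In sham cerebellum Ikbke was at 0.638 FPKM and Nfkb1 at 15.2. For Tab2 in all tables and Tab1 in all but the cerebellum table, the deposited FPKM used a shorter length than the table gives, which raises these values relative to the others.

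**Figure D5:**
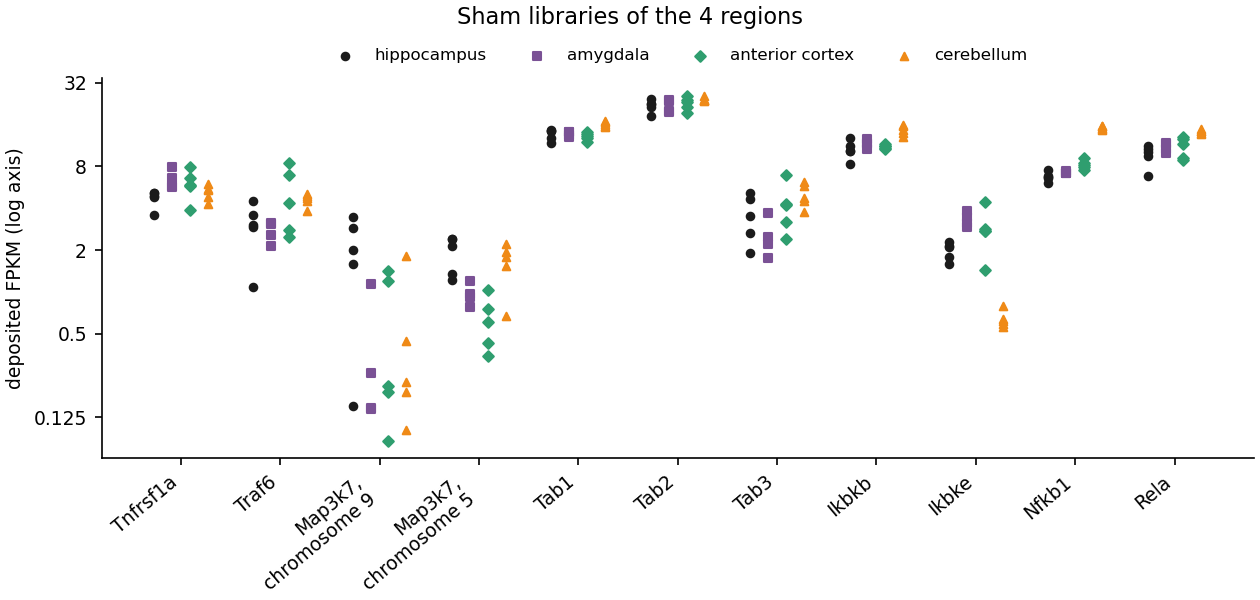
Deposited FPKM (log axis) of the 11 identifiers in the sham libraries, 1 point per library and 1 symbol per region, with no point for the unnumbered amygdala library. Tab2 is high in all regions, Ikbke is lowest in the cerebellum and Nfkb1 highest there, and the chromosome 9 identifier of Map3k7 spreads most within each region.

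The rest of the pathway, 92 genes in 11 lists of which 87 were measured in each table, had no member called by edgeR in any region. Of those tested, 37 were higher and 45 lower in blast amygdala, 29 and 51 in the anterior cortex, and 34 and 43 in the cerebellum, and 38 and 40 in the hippocampus. Medians of their log2 fold changes were -0.02, -0.06 and -0.02 outside the hippocampus, beside medians near 0 over all genes. At an unadjusted p under 0.05 there were 5 of 82, 5 of 80 and 4 of 77 in these 3 regions, where 8.67%, 4.32% and 4.62% of all genes tested were under it.

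Among NF-kappaB target genes, Icam1, which codes for a leukocyte adhesion molecule, had 7.85 CPM in blast and 5.48 in sham amygdala. All 5 blast libraries were above all sham libraries, as for 1.52% of all amygdala genes separated in either direction. The log2 fold change was 0.52 ± 0.16 (SE; edgeR, adjusted p = 0.459). Pathway genes named here and below were picked by the smallest p in each direction, which favours separate groups, so nothing is read from a separation. In the cerebellum the cyclooxygenase gene Ptgs2 had 8.37 and 5.66 CPM, a log2 fold change of 0.56 ± 0.16 (edgeR, adjusted p = 0.960). Without Cer22, Cer8 and Cer33 it was 0.43. The nuclear IkappaB gene Nfkbiz was at 0.32 ± 0.14 there. Of the 10 listed targets, those tested and higher in blast were 5 of 5 in the cerebellum and 3 of 6 in the amygdala. They were 4 of 5 in the anterior cortex and 3 of 5 in the hippocampus, and nothing is read from these counts. In the hippocampus Nfkbia, the gene of IkappaB-alpha and itself a target, had 15.4 CPM in blast and 18.6 in sham. All blast libraries were below all sham libraries, where 0.272% of all genes were separate in either direction, and Nfkbia is given with no test.

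On the receptor and adaptor side, Tnfrsf1b, the gene of tumour necrosis factor receptor 2, had 3.92 CPM in blast and 6.51 in sham anterior cortex, a log2 fold change of -0.73 ± 0.24 (SE; edgeR, adjusted p = 0.799; -0.55 without the 4 libraries with fewer genes) with no overlap between groups. Traf3, an adaptor that restrains the non-canonical NF-kappaB arm, had 96.5 and 118.1 CPM in the amygdala, a log2 fold change of -0.29 ± 0.09 (adjusted p = 0.459), and the receptor gene Cd40 stood at 0.59 ± 0.33. In the cerebellum Nlk, which codes for a kinase downstream of TAK1, was at -0.15 ± 0.05 with all blast libraries below sham, the interleukin-1 co-receptor gene Il1rap at -0.18 ± 0.09 and the RNA sensor gene Tlr3 at 0.38 ± 0.23. Over all genes, 0.644% were separate in the anterior cortex and 0.731% in the cerebellum, in either direction. In the hippocampus the receptor-associated kinase gene Irak4 was at 0.31 ± 0.17 and the adhesion molecule gene Vcam1 at -0.17 ± 0.12 (-0.10 without Hip_8, Hip_666 and Hip_11).

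On the kinase side, the JNK activator gene Map2k7 had 38.6 CPM in blast and 49.7 in sham anterior cortex. The groups did not overlap, as for 0.644% of all genes there, and the log2 fold change was -0.36 ± 0.11 (SE; edgeR, adjusted p = 0.799). Without the 4 libraries with fewer genes it was -0.22. The p38-beta gene Mapk11 stood at 0.48 ± 0.24 there (0.074 without them) and at -0.32 ± 0.21 in the hippocampus, and Tbk1 at 0.22 ± 0.11 in the anterior cortex (0.10 without them). The other MAP3K genes gave 2 of 14 higher in the anterior cortex. The count was 5 in the amygdala and 5 in the cerebellum, and 7 in the hippocampus, and nothing is read from these counts. In the anterior cortex Map3k2 was at -1.25 ± 0.41 (7.98 and 19.0 CPM) and Map3k1 at 0.76 ± 0.34. Without the same 4 libraries Map3k2 was at -0.15 and Map3k1 at 0.52. In the amygdala Map3k10 was at -0.24 ± 0.09, Map3k13 at -0.28 ± 0.11 and Map3k8 at 0.45 ± 0.25, and in the cerebellum Map3k6 at -0.36 ± 0.16. In the hippocampus Chuk, the gene of IkappaB kinase alpha, was at 0.19 ± 0.08 and Map3k11 at 0.18 ± 0.10.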

How the data were processed

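Expression was measured by RNA sequencing of 40 rat brain libraries, 5 per group. CASAVA is named in the submitters' processing notes, while no aligner, counting tool or genome build is named in the sources used here. The deposited files hold read counts per gene and library, FPKM values, and the authors' table of log2 fold changes with p-values and adjusted p-values, per the file headers. A total of 41 other columns of per-sample values were not used (normalised signals, and 1 FPKM column that no library's title matches). The deposited FPKM equalled count over length and library total within 1% for 75.0% to 77.1% of values. Members and lists were chosen with earlier results of these data known. The genes named are all members, the neighbours of both Map3k7 identifiers, the 5 genes most and least like the chromosome 9 identifier, and, per region, the 3 pathway genes with the smallest p in each direction.

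Each region's counts were fitted with edgeR 4.0.16 (filterByExpr, TMM, two-sided quasi-likelihood F tests, Benjamini-Hochberg adjustment over all genes tested, called at 0.05), as were the sham libraries of the 4 regions together. The mean blast effect outside the hippocampus was fitted by voom and limma 3.58.1, where libraries of one title number formed a random block. Library totals of 11268097 to 37128383 counts bound the counting error. The alternatives were DESeq2 1.42.0, voom, no filter, other scaling, each library left out, and the libraries with choroid plexus RNA or few detected genes left out together, the last chosen after the data had been seen. Scripts were tested on simulated data.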

Additional observations from a re-analysis of the deposited data

Results flagged for a closer look

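In 9 of 88 groups of 5 libraries checked, 1 library stood apart from the others, by a gap of more than 0.710 of the group's whole range. Chance flags about 1 in 20 groups. For the chromosome 9 Map3k7 identifier these were hippocampus sham library Hip_33, low at 0.645 CPM (gap 0.722 of the range), and amygdala blast library Amy_8, high at 4.42 CPM (0.760). For Ikbke they were cerebellum blast library Cer666, high at 4.67 CPM (0.893), and amygdala blast library Amy_88, low at 7.80 CPM (0.772). For Tab2 they were cerebellum sham library Cer14, high at 87.4 CPM (0.895), and anterior cortex blast library AC_8, high at 105.6 CPM (0.814).

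Anterior cortex blast library AC_8 was also the high one for Ikbkb, at 46.1 CPM (0.796), and for Tnfrsf1a, at 17.3 CPM (0.794). That library detected 16577 genes, the fewest of the 40. Hippocampus sham library Hip_13 was low for Tnfrsf1a, at 7.54 CPM (0.804).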

How the results depend on the processing

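The count of genes called by edgeR between blast and sham was 0 in every region. In the hippocampus DESeq2 called 1 gene, and leaving out each library gave 0 to 1, the 1 being without sham library Hip_33. In both cases it was the chromosome 9 Map3k7 identifier, on which the choice rested. These calls use the same values as the choice, so they are no test of Map3k7 and nothing is read from them. In the amygdala DESeq2 called 9 and the fit without a filter 2, and leaving out each library gave 0 to 2. In the cerebellum DESeq2 called 5, with 0 to 1 on leaving out each library, and in the anterior cortex the fit without libraries AC_8, AC_11, AC_13 and AC-15 called 2. The mean effect gave 0 to 2 genes without each title number. Members called between sham regions ran from 5 to 8, with the lowest count without number 11. Fits without a number hold fewer libraries, so these counts are a description.

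Small log2 fold changes turned sign when single libraries were left out, and none of these passed the test. The ranges were -0.012 to 0.16 for Ikbke, -0.090 to 0.0012 for Tab2, -0.051 to 0.10 for Tnfrsf1a and -0.23 to 0.40 for the summed Map3k7 identifiers in the amygdala. They were -0.22 to 0.13 for Ikbke and -0.063 to 0.025 for Nfkb1 in the anterior cortex. In the cerebellum they were -0.068 to 0.011 for Ikbkb, -0.041 to 0.037 for Tab1, -0.15 to 0.030 for Tab3, -0.050 to 0.072 for Traf6 and -0.31 to 0.073 for the summed identifiers. The mean effects ran from -0.025 to 0.19 for the chromosome 5 identifier and from -0.13 to 0.051 for Tab3. Without libraries AC_8, AC_11, AC_13 and AC-15 the anterior cortex gave -0.0086 for Rela, 0.14 for Tab3, -0.16 for Tnfrsf1a and 0.45 for Traf6. Without libraries Cer22, Cer8 and Cer33 the cerebellum gave -0.020 for Rela, 0.011 for Tab3 and -0.030 for Traf6. The mean effect of the chromosome 5 identifier was -0.088 without the amygdala and -0.15 without the anterior cortex, and that of Tab3 was 0.075 without the anterior cortex. The cause of these changes was not tested.

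Blast and sham share no title number, so no paired fit exists within a region. Deviations of same-numbered libraries of different regions correlated above 0.1 in 19 of 57 pairs (median 0.071), against 24 of 243 pairs with other numbers (median -0.021). Whether a number marks an animal is not said, and not every pair passed 0.1, so equal numbers are not treated as known pairs, and the random block was a choice of the mean-effect fit. With the number as a replicate block over the sham regions, and without the unnumbered library, 11249 genes and 7 of the 10 members were called. The main fit of the sham regions called 11686 genes. The mean effect without the replicate block called 0 genes. The hippocampal Map3k7 difference, on which the choice rested, kept its sign under each alternative run. With most sham libraries far above every blast library, leaving out a single library could not turn it, and nothing is read from this. Counts of 4 to 22 in the low libraries limit how closely their level is known.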

Other observations

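The tables of the regions differ in annotation. Among identifiers shared with the hippocampus table, the cerebellum table gives 4045 another name and 600 another length, Tab1 among them with 2986 bases against 3429. In the authors' deposited table for the amygdala, an adjusted p stands beside 2096 genes, and none of the 11 identifiers described here has one. A comparison by gene name alone would therefore set the chromosome 9 identifier in 3 regions against the chromosome 5 identifier in the cerebellum, where their levels in sham libraries were 2.33 and 7.40 CPM.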
